A study of Xenopus laevis with 13 samples.

Results

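Of 43803 probes on arrays that followed Xenopus laevis from the egg to the tadpole, 150 dipped at the neurula stages 15 and 20. A probe was counted as dipping when the scanner software called its spot well above background on the 11 arrays other than stages 15 and 20, and when the higher of its values at these stages lay at least 1 below the lowest of the 11 others on the log2 scale, a fall of at least 2-fold. The value used is the log2 of the processed signal minus the 75th percentile of the array, called V here, so that a V of 0 is the 75th percentile of all probes of that array. Of 22874 probes that were well above background on the 11 other arrays, the 150 dip probes were 0.656%. The probes were thus chosen by their V on all 13 arrays, so their dip is a description and was not tested. They were not brighter than other probes outside the dip. The median V over the 11 other arrays was -0.54 in the median dip probe and -0.31 in the median probe tested. It was above 0 in 54 dip probes, against 45.1% of the probes tested.

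Gene expression was measured once in unfertilized eggs, in cleaving embryos at the 2-cell and 16-cell stages, in blastulae at stages 8 and 9, in gastrulae at stages 10.5 and 12, in neurulae at stages 15 and 20, in tailbud embryos at stages 25, 30 and 35, and in tadpoles at stage 40, giving 13 one-color Agilent arrays. Total RNA came from frozen samples of whole eggs or embryos, which had been dejellied and kept in dilute Steinberg's solution, a salt medium; no treatment is named in the labels. By their labels all groups differ in stage only, but the arrays also lay on 4 slides, which follow the order of the stages. No stage has a second array, so no value has a replicate error and no test between stages was made. For 8 samples, 1 of the labels names another stage than the title does, among them both dip arrays: the sample titled stage 15 is described as stage 12 and that titled stage 20 as stage 15. The title, the source and the stage label of each sample name the same stage, and these were used.

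The unfertilized egg carries RNA made by the mother, and the embryo lives on this supply through the cleavage divisions until its own genome becomes active in the blastula. Much maternal RNA is then cleared, while the embryo gastrulates and forms the neural plate. During the neurula stages the plate folds and closes into the neural tube, and in the tailbud stages muscle, blood, eye, gut and other organs differentiate. A transcript can therefore be abundant as maternal RNA, decline, and be made again by the embryo. Arrays of whole embryos measure its signal relative to that of the other labeled RNA, which need not follow its share of all RNA. They cannot tell fewer expressing cells from less RNA per cell.

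The arrays pair each probe with a GenBank accession of a cDNA or EST and not with a gene name. Of 28256 accessions on the array, 0 were found in the reference gene table, so the dip probes are named here by probe and accession, and no role is given to them. For the same reason no tissue marker could be used to check the stages. Xenopus laevis is an allotetraploid with related copies of many genes, and which copies a probe binds is not known here. None of the accessions of the dip probes was among those in the list of glycogenes of the study, but most genes there are given by UniGene cluster and could not be matched.

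The median V of the 150 probes was 0.44 in the egg, 0.05 and -0.08 at the 2-cell and 16-cell stages, and 0.01 and -0.05 at stages 8 and 9. In the gastrula it was -0.55 (stage 10.5) and then -1.70 (stage 12), and in the neurula it was -3.86 (stage 15) and -3.63 (stage 20). The tailbud medians were -2.12, -1.29 and -0.86 at stages 25, 30 and 35, and the tadpole median was -0.52. The set was thus level from cleavage to the late blastula, was lower by the late gastrula, reached its trough in the neurula, and climbed through the tailbud stages. Over the 22874 probes tested the median moved between -0.57 and -0.20 on all 13 arrays.

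The depth of a dip, taken as the lowest V of the 11 other arrays minus the higher V of stages 15 and 20, had a median of 1.2 and ranged from 1.00 to 2.47. Its median corresponds to 2.30-fold. At least 1.5 was reached by 32 probes and at least 2 by 8. These are differences to the lowest of the other stages. The mean of the 11 other arrays lay further above the mean of stages 15 and 20, by 3.11 in the median probe.

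Near the limit of the rule the values ran on without a gap. The last probes inside were Xl#S22245716_996 of BC084421, with a depth of 1.0019, and Xl#S13748603_475 of BJ061796, with 1.0034. The first outside were Xl#S20966780_2449 of BC074290, with 0.9977, and Xl#S13761026_566 of BJ049367, with 0.9961. Between 1 and 1.1 there were 38 dip probes, and 49 probes lay between 0.9 and 1.

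Signal at the trough was still measurable for most. At stage 15, 117 of the 150 probes were well above background, and at stage 20, 130 were. Both values were measured for 117 probes, 13 were measured at stage 20 alone, and 20 were not well above background at either stage. For these 20, only a lower bound can be given: the mean of the 11 other arrays was at least 2.83-fold to at least 43.6-fold above the lowest signal called well above background at stages 15 and 20 (or the probe's own signal, if higher), with a median of 8.31. The highest bound belonged to Xl#S28473453_1083 of BC108612. The depth of such probes is not a measured size, and 5 of the 8 depths of 2 or more were of this kind, among them the deepest of all, that of Xl#S13774014_307 of BI441906 (2.47, at least 9.93-fold by the bound). Among the 117 measured probes the median depth was 1.17 and the highest 2.46.

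The scanner software gives each spot an error of its signal, which covers the spot and its background and not the spread between embryos. Combined over the lowest other array and the higher dip array, it was 0.21 (log2) in the median of the 117 measured probes and 0.30 at most. Each of their 117 depths was at least 3.75 times this error. The rule sets every depth at 1 or more, so with errors of at most 0.30 a high ratio follows from the rule. Over all 150, the depth was above 2 times the error in 143 probes. The 7 others were all among the 20 probes not well above background at either dip stage.

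The deepest measured dip was that of BC078114, in both of its probes. V of Xl#S21313013_1795 was 3.41 in the egg, 2.51, 2.44, 2.28 and 2.48 from the 2-cell stage to stage 9, 1.5 at stage 10.5 and -0.99 at stage 12. It was -3.56 at stage 15 and -3.44 at stage 20, then -0.78, 0.22, 0.10 and 0.26 from stage 25 to stage 40. The egg and the embryos up to stage 9 were highest. Stages 15 and 20 lay 2.46 or more below every other stage (5.50-fold), and the tailbud and tadpole stages lay between. The second probe, Xl#S21313013_1755, had 3.37 in the egg, -1.18 at stage 12, -3.59 and -3.63 at the dip and 0.22 at stage 40, with a depth of 2.41.

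BC075242 showed a dip with a shallow approach. V of its probe Xl#S21057613_2219 was 0.04 in the egg, -1.42, -1.40, -1.82 and -1.49 from the 2-cell stage to stage 9, -1.70 at stage 10.5 and -2.36 at stage 12. It then was -4.59 and -4.89 at stages 15 and 20, and -2.35, -1.29, -0.77 and -0.26 at stages 25 to 40. In this probe stage 12 and stage 25 were nearly equal, and stage 40 lay above all embryonic stages before the dip. The other probe of the accession, Xl#S21057613_2417, differed in both respects. Its V was -0.51 at stage 12 and -1.56 at stage 25, and stage 40 (0.65) lay below the 16-cell stage (0.73). The depth was 2.23 in Xl#S21057613_2219 and 1.42 in Xl#S21057613_2417.

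In BC108612 the fall continued to background. V of Xl#S28473453_1083 was 0.91 in the egg, between 0.34 and 0.56 from the 2-cell stage to stage 9, -0.69 at stage 10.5 and -2.54 at stage 12. At stages 15 and 20 it was -5.97 and -6.12, neither well above background, and it was -3.57, -1.47, -0.32 and 0.41 at stages 25 to 40. The level at stage 40 lay within the range of those from the 2-cell stage to stage 9. The other probe, Xl#S28473453_1216, was likewise not well above background at either dip stage.

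Stages 15 and 20 were about equally low. Stage 20 lay above stage 15 in 102 probes and below it in 48, with a median difference of 0.21, and the stages lay within 0.5 of each other in 100 probes. All dip probes were counted, among them 20 not well above background at either stage and 13 not so at stage 15 alone. In those probes the difference has no measured size. The rule asks for low values at both stages, so these counts are a description. The stages were more than 1 apart in 9 probes, in each of which stage 15 had the lower value. In most of these 9, stage 15 was not well above background, and in some neither stage was, so those gaps have no measured size. The widest gap was that of BC090253, named after its values were seen. Its V was -7.65 at stage 15, not well above background, and -5.56 at stage 20.

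The edges of the trough differed more between probes. The lowest of the 11 other arrays was stage 25 in 93 probes, stage 12 in 38, the egg in 10, stage 30 in 6, and stages 9, 35 and 40 in 1 each. From stage 12 to stage 15 the median fall of the dip probes was 2.09, and from stage 20 to stage 25 the median rise was 1.41. Both steps are fixed in direction by the rule. Of the probes tested, 18.2% fell and 10.2% rose by at least 1 at the first step, and 2.8% fell and 4.15% rose by as much at the second. Only 3 probes would also pass as dipping at stages 12, 15 and 20 together, 7 would at stages 15, 20 and 25, and 140 would at neither.

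The fall often began earlier. At stage 12, 114 of the 150 probes were already at least 1 below their value at stage 9, with a median change of -1.65, against 21.8% of the probes tested and a median of 0.03. None of the 150 had risen by at least 1 over this interval, as 18.4% of the probes tested had. At stage 10.5 this held for 22 probes, against 6.77% of the probes tested, of which 5.02% rose by as much. The rule sets a lower limit on stages 9, 10.5 and 12 alike, so these shares are a description of how the probes entered the dip. BE026509 had the widest fall of this kind: V of Xl#S13656880_275 was 3.88 in the late blastula, 0.84 and -2.98 in the gastrula, and -6.01 at stage 15, where it was not well above background. It was -4.96 at stage 20, -1.97 at stage 25 and 1.02 in the tadpole.

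A minority of the dip probes had an even level outside the dip. The range over the 11 other arrays had a median of 2.99 in the dip probes and 2.64 in the probes tested, and was at most 2 in 22 dip probes (14.7%), against 29.2% of the probes tested. In 4 probes the dip was deeper than this range was wide, which under the rule any range below 1 ensures. Among them, V of Xl#S28473482_2712 of BC108455, named after its values were seen, was 0.88 in the egg, 0.77, 0.73, 0.95, 1.00, 0.80 and 0.42 from the 2-cell stage to stage 12, -1.26 and -0.79 at stages 15 and 20, and 0.57, 1.05, 0.82 and 1.1 afterwards. All values outside the dip lay within 0.69 of each other, and the dip was 1.21 deep.

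Another of the 4 was Xl#S21313352_1844 of BC078016, 1 of 5 probes that stayed above the 75th percentile of every array, stages 15 and 20 included. Its V was 3.98 in the egg, 4.02, 4.33, 4.46, 4.6, 4.13 and 3.68 up to stage 12, 2.57 and 2.63 at the dip, and 3.77, 4.26, 4.30 and 4.08 from stage 25 to stage 40. A strong signal at the trough went with a dip of 1.06 here. Xl#S14742596_3117 of BC046860 also stayed above 0, with V of 6.03 in the egg, 5.21 at stage 9, 1.98 at stage 12, 0.54 and 0.86 at the dip, 2.62 at stage 25 and 4.89 at stage 40. In this probe the neurula values were the end of a fall that began at stage 10.5.

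After the dip the probes climbed to different levels. From stage 20 to stage 40 V rose by 1.25 to 7.78, with a median of 3.02. The rule fixes a rise of at least 1 here, and of the probes tested 16.4% rose and 20% fell by as much. The highest V lay between the egg and stage 9 in 111 probes, most often in the egg (65), and between stages 25 and 40 in 38, of which 33 peaked at stage 40. Over the same 11 arrays, 54.6% of the probes tested were highest between the egg and stage 9 (36.9% in the egg) and 25.6% between stages 25 and 40 (9.56% at stage 40). From stage 25 onward 98 of the 150 rose at every step to stage 40, against 17.6% of the probes tested. Stage 40 was compared with the median of the 5 arrays from the egg to stage 9. It lay within 1 of this median in 66 probes, at least 1 below it in 59 and at least 1 above it in 25. Of the probes tested, 39% were at least 1 below and 20.3% at least 1 above, shares near those of the dip probes.

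The 3 kinds of probe were sorted by stage 40 against the median from the egg to stage 9. Their differences in level at those stages follow in part from this sorting and are a description. Those that ended below had a median V of 0.75 in the late blastula (stage 9), -4.10 and -3.75 at the dip and -1.36 in the tadpole (stage 40). Those that ended at their former level had -0.05, -3.47, -3.19 and -0.09 on these arrays. Those that ended above had -1.49, -4.76, -4.77 and 0.01. An example of the first kind is BC070576, whose probe Xl#S19874564_1997 had V of 3.53 at stage 9, 2.34 at stage 12, -1.29 and -1.23 at the dip and 0.79 at stage 40. An example of the last is BC084886, whose probe Xl#S22300464_1461 had -2.30 at stage 9, -4.18 at stage 12, -7.09 (not well above background) and -5.97 at the dip, -4.74 at stage 25 and 0.66 at stage 40. Both examples were chosen after their values were seen.

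From the egg to the 2-cell stage V rose by at least 1 in 27 dip probes and fell by at least 1 in 39. Of the probes tested, 18.2% rose and 26% fell by as much, shares near those of the dip probes. BC079727, which lay lower in the egg, gave V of -1.0 in the egg, between 0.26 and 0.49 from the 2-cell stage to stage 10.5, -1.12 at stage 12, -3.89 and -3.35 at the dip, -1.59 at stage 25 and 0.36 at stage 40, in probe Xl#S21504258_4227. The egg lay below the cleavage stages, and both dip stages lay below the egg.

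A second probe of the same accession gives another reading of the same RNA that the rule did not use for the first. It is not a second sample, and since the probe sequences are not among the files used here, whether both probes overlap is not known. The 150 dip probes stand for 119 accessions, of which 31 have 1 probe on the array and 88 have 2. Both probes were dip probes in 31 accessions, and their depths differed by 0.12 in the median and 0.81 at most. The rule chose both probes of these pairs, which holds their depths close. Over all 6931 pairs with both probes tested, the median difference in depth was 0.18. In the remaining 57 accessions the second probe was not a dip probe. It was well above background on the 11 other arrays in 46 of these.

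Of these 46 second probes, 41 were lower at stages 15 and 20 than on every other array, that is, had a depth above 0, against 8.22% of the probes tested. A depth of at least 0.5 was reached by 35 of them, against 2.58%. Their median depth was 0.79, whereas the median over all probes tested was -1.34. The rule caps these depths at 1, since a second probe with more would itself be a dip probe. Over the whole array, both probes were tested in 6931 accessions with 2 probes, and 57.4% of the 108 dip probes among these had a partner that also dipped. This share comes from the same 31 accessions given above. Of all probes tested, 0.656% dipped.

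In 5 of the 46 second probes stages 15 and 20 were not both below every other array. Depths there were -0.03 in BX848111, -0.16 in BC084811, -0.50 in BC079813, -0.99 in BU915012 and -1.16 in BC106435. In BC084811 and BU915012 the egg was the only array not above both dip stages. V of the BC084811 probe was -1.90 in the egg, -0.16 at stage 12, -1.85 and -1.73 at stages 15 and 20, and -0.16 at stage 25. For the BU915012 probe these values were -4.54, -3.15, -3.75, -3.54 and -2.55. For BC106435 the member itself lay at the edge of the rule, with a depth of 1.00. The other 11 second probes were not well above background on at least 1 of the 11 arrays. Among them 5 had lower values at stages 15 and 20 than elsewhere, but their depths rest on values not well above background and have no measured size. Those of DT076975 and DT077101 were not well above background on any of the 11, so they give no second reading.

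The same rule was applied to each pair of consecutive arrays to see where the neurula dip stood. At stages 15 and 20, 0.656% of the probes tested dipped. At stages 12 and 15 it was 115 probes (0.5%), at stages 35 and 40 it was 123 (0.538%), at stages 10.5 and 12 it was 83 (0.364%) and at stages 20 and 25 it was 59 (0.260%). No other pair of arrays had more than 14. The first and the last pair have other arrays on 1 side only, so a dip or peak there needs no return. With a depth of 2 the order changed: 18 probes dipped at stages 12 and 15, 12 at stages 35 and 40, 11 at stages 10.5 and 12, and 8 at stages 15 and 20. The mirror rule, well above background at stages 15 and 20 and at least 1 above every other array, was met by 101 of 30055 probes (0.336%). Peaks outnumbered dips at stages 10.5 and 12 (240 against 83) and at stages 12 and 15 (195 against 115), and most of all at stages 35 and 40 (769 against 123). Dips outnumbered peaks at stages 15 and 20, at stages 20 and 25 (59 against 28), in the egg and 2-cell stage (14 against 3) and at stages 8 and 9 (9 against 2). Without replicate arrays these differences have no test. A peak asks for signal well above background on the pair, and a dip on the arrays outside it, so the probes tested differ. As shares of the probes tested, peaks against dips were 0.837% against 0.364% at stages 10.5 and 12. They were 2.39% against 0.538% at stages 35 and 40.

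The arrays lay on 4 slides, scanned on 1 day, and the dip arrays were on different ones: stage 15 shared a slide with stages 9, 10.5 and 12, and stage 20 with stages 25, 30 and 35. The rule already demands that each dip array lie below the others of its slide, so the values within slides are only a description. Within its slide, stage 15 lay below the lowest of the other 3 arrays by 1.02 to 4.07 in the 150 probes, with a median of 2.09. Stage 20 lay below the others of its slide by 1.01 to 3.76, with a median of 1.41. The largest value at each stage rests on a dip signal not well above background and has no measured size. Of all probes tested, 14.4% fell by at least 1 in this way at stage 15 and 3.69% at stage 20. None of the dip probes was flagged as saturated, non-uniform or as an outlier of its population on any array.

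The level of whole arrays differed between stages. The 75th percentile of the processed signal was 1142 at stage 15 and 1122 at stage 20, the lowest of the embryonic arrays, compared with 1198 at stage 12 and 1405 at stage 25, while the egg had 942. Relative to 7 spike-in control probes, which bind control RNA added to the sample, the 75th percentile (log2) was -2.26 and -2.16 on the dip arrays, -2.37 on the array before them (stage 12), -1.43 on the array after (stage 25) and -3.07 in the egg. From stage 12 into the dip the 75th percentile thus rose relative to the controls, while the percentile itself fell. V is taken relative to the 75th percentile and not to the controls. When arrays were scaled to these controls 460 probes dipped, 110 of them among the 150, and with normexp and quantile normalization 49 did, 47 of them among the 150. The part of the array levels in the dip was not tested.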

How the data were processed

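The authors extracted total RNA from frozen eggs and embryos, labeled it with Cy3 and hybridized it to Agilent one-color frog arrays. For every spot, the deposited scanner output holds the processed signal intensity that Agilent Feature Extraction 10.7.3.1 had corrected for background on a linear scale, its error and flags. The deposited table of the whole series held the same intensity in all 587860 values. Of 45220 spots, 1417 controls were left out. V was taken as log2 of the intensity minus the log2 of the 75th percentile of the array, after the methods of the study. The members, gene lists and alternatives were chosen with earlier results of these data known. Lists of tissue and pathway genes by symbol were not used, since no accession had a symbol. Named probes were those deepest, nearest to the limit, with the highest signal or with a second probe, and others are marked. Values were computed with Python 3.11.15, numpy 2.4.6 and pandas 2.3.3, and normexp and quantile normalization were run with limma 3.58.1 in R 4.3.3. Normexp followed by quantile normalization used the median spot and background signals. Quantile normalization alone used the processed signal. The rule was run on simulated probes of even level with planted dips deeper than its limit. This checked the code and not the choice of the rule. The number of arrays, 1 per stage, limits the precision. Alternatives were other scalings, filters on dim or flagged spots, other depths, 1 mean value per accession, and leaving out each array.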

Additional observations from a re-analysis of the deposited data

How the results depend on the processing

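The 150 dip probes were 128 with median scaling, 185 with quantile normalization, 175 with no demand on the background flag and 117 with a signal well above background on all 13 arrays. The count moved by over 1.5 times to 460 with spike-in scaling and 49 with normexp (offset 50) and quantile normalization. It also moved to 590 with a depth of 0.5 and 8 with a depth of 2. With 1 mean value per accession it was 85 of 13517 values tested, over 1.5 times below 150. That count is of accessions and not of probes, so the counts have unlike units. The 150 probes stand for 119 accessions. Leaving out 1 array at a time gave 150 to 499 probes. It was 260 without stage 12, 408 without stage 25, 273 without stage 15 and 499 without stage 20, each with 1 array fewer to pass. The median depth of the 150 probes, 1.2, was 1.39 with spike-in scaling and 0.82 with normexp, and the cause was not tested. All 150 kept a depth above 0 under every scaling run. The share of second probes with a depth above 0, 89.1%, was 100% with the members set at a depth of 2 (3 probes), 75.6% at a depth of 0.5 and 73.1% with no demand on the background flag, which lets in dim spots. Relative to the 11 other arrays, the median over the probes tested at stages 15 and 20 was -0.18 after scaling to the 75th percentile, -0.52 after median scaling and -0.70 after spike-in scaling. No paired analysis was possible because no stage was hybridized more than once and the labels hold no replicate numbers. Dim signal leaves 20 dips with only a lower bound.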

Other observations

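The spots of the 150 dip probes were spread over the array, with 35, 39, 37 and 39 in its 4 quadrants, and 0 of them touched another. Accessions that start with BC made up 57.3% of the dip probes and 42.1% of the probes tested. Taken singly, stage 12 was at least 1 below every other array in 360 probes, stage 15 in 141 and stage 20 in 41, while the egg was in 2322, stage 40 in 132, stage 10.5 in 86 and each other array in at most 27.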
